A study of Mus musculus with 6 samples.

Results

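The genes described here are those of the insulin-like growth factor 1 (IGF1) axis: the ligand Igf1, the receptors Igf1r and Igf2r, and the IGF binding proteins Igfbp2 to Igfbp7. Every non-control probe that the array names for one of these genes was taken. This gave 14 probes for 9 genes among 41174 probes and 29742 gene names. Igf1 had 3 probes, Igfbp3, Igfbp4 and Igfbp5 had 2 each, and the other genes had 1 each. Where a gene had more than 1 probe, the brightest stands for it as probe 1, with the others beside it.

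IGF1 is a secreted growth factor that signals through the receptor tyrosine kinase encoded by Igf1r, and from there through insulin receptor substrates, PI3 kinase and AKT, to favour growth and survival. Igf2r binds IGF2 and mannose 6-phosphate tagged proteins and takes them to lysosomes, without a kinase of its own. The binding proteins are secreted too. They hold IGFs in the medium or the matrix, restrain or prolong their action, and are cut by proteases that set the ligand free. Fibroblasts are a main source of several of them in culture, and Igfbp3, Igfbp5 and Igfbp7 are widely studied in senescent fibroblasts.

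The cells were primary mouse embryonic fibroblasts from embryos of day 15 by the labels, either wild type or homozygous for Wrn Δhel, an in-frame deletion of part of the helicase domain of the mouse homologue of the Werner syndrome gene. The labels give no strain. The cells were primary cultures, so each may hold several kinds of connective tissue cell. Treated cells had received 0.5 mM H2O2 for 1 h and fresh medium, and RNA was taken 24 h later. The 6 two-colour arrays made 3 comparisons with 2 biological replicates each. Treated (Cy5) against untreated (Cy3) cells were hybridised for wild type, replicates 1 and 2, and for the mutant, replicates 1 and 2, and untreated cells of both genotypes for replicates 3 and 4. No comparison had its dyes exchanged, so a probe's preference for a dye enters each ratio. Levels are log2 intensities after background subtraction and normalization, and are compared only within a probe. In such bulk RNA, fewer cells of a kind and less RNA per cell cannot be told apart.

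Between 41.5% and 69.2% of spots stood well above background in Cy5, and between 75.8% and 90% in Cy3. Feature Extraction, the image software, had marked between 166 and 3661 spots as outliers on 5 arrays, but 9368 (22.6%) on wild type replicate 2. Such spots were left out, which removed that array's value for Igf1 probe 1, Igf1r, Igf2r, Igfbp2, Igfbp4 probe 2 and Igfbp6. Wild type replicate 1 and mutant replicate 2 also lost Igfbp6. The targeted gene Wrn had 4 probes, and whether any lies inside the deleted part was not given, so they check no label. Wrn probe A_52_P498492 had log2 ratios of -0.77 and -1.04 in untreated mutant against wild type cells (mean -0.91, limma adjusted p = 0.0115) but differed by 0.13 within Cy3 of the treatment arrays (adjusted p = 0.946), and the other 3 Wrn probes were not called.

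The direction of the comparison between untreated genotypes is likely, not certain. The labels place wild type cRNA in Cy5 on these arrays, whereas the study's list for this comparison takes Cy5 over Cy3 as mutant over wild type. The direction of that list was used, so with the dyes of the labels every sign below for this comparison would turn. Its basis in the files is the Cy3 channel of the treatment arrays, where untreated cells of both genotypes carried one dye. Over 40228 probes the ratio on replicates 3 and 4, read as mutant over wild type, correlated with the mutant minus wild type difference in that channel with Pearson r = 0.591 and Spearman rho = 0.504. Among the 190 probes called in both, members left out, r was 0.976 and 100% had the same sign. Probes are not independent replicates, and the 2 sets share no array.

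Untreated mutant and wild type cells differed at most of these genes. Limma called 8 of the 14 member probes at an adjusted p under 0.05, 4 higher and 4 lower in the mutant, which is 57.1% of the members against 19.6% of all 41099 probes tested (9.83% higher and 9.78% lower). By gene, Igf2r, Igfbp4, Igfbp5 and Igfbp7 were higher, Igf1, Igf1r and Igfbp3 were lower, and Igfbp2 and Igfbp6 were not called. The median log2 ratio over the 9 genes was 0.52, and over all probes 0.00. With probes under a mean log2 intensity of 6 left out, 5 of 7 member probes were called, against 36.4% of all probes. Within Cy3 of the treatment arrays 0 of 13 member probes were called. The members were chosen with earlier results of these data known, and several calls were lost under other settings, as given below.

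**Figure D1:**
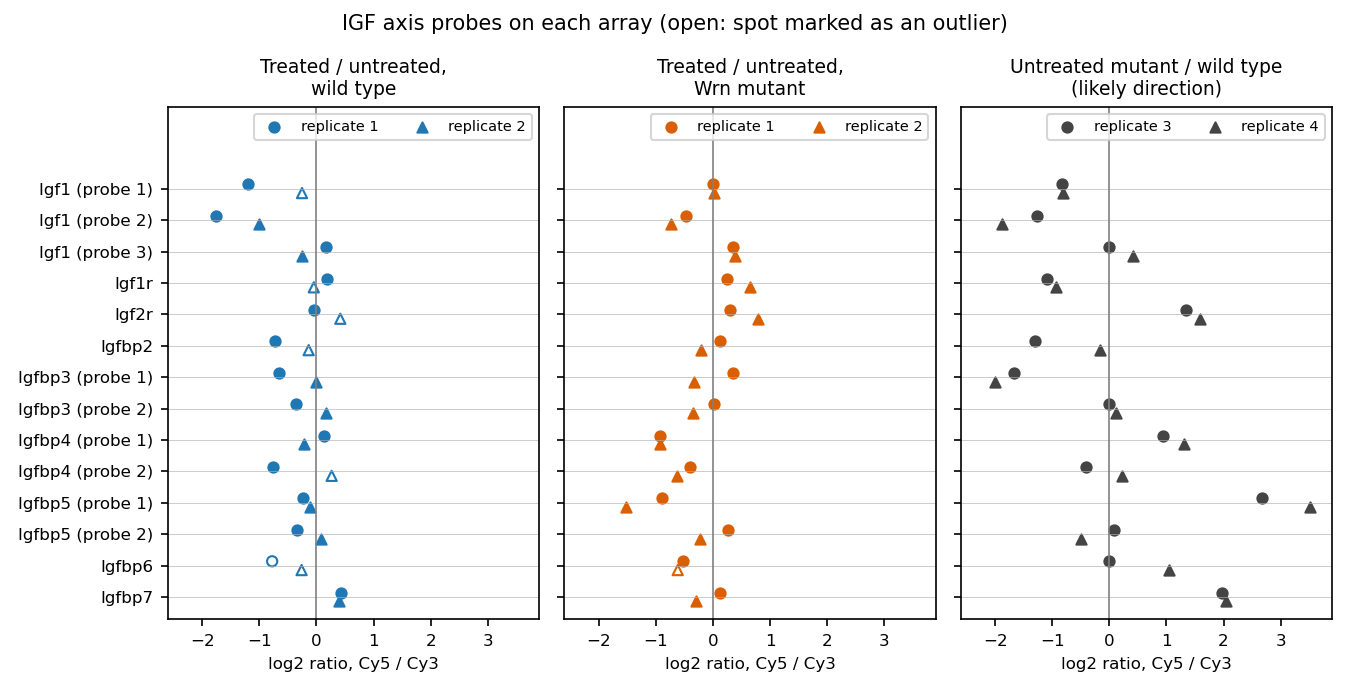
Log2 ratio of Cy5 over Cy3 (horizontal axis) of each member probe (rows) on each array, in the 3 comparisons (panels); each point is 1 array, and an open point is a spot marked as an outlier, left out of the tests. In the right panel Igfbp5 probe 1 lies at 2.68 and 3.51, Igfbp7 at 1.97 and 2.05, and Igfbp3 probe 1 at -1.67 and -1.997.

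The ligand gene Igf1 gave log2 ratios of -0.82 and -0.81 at probe 1 on replicates 3 and 4. The replicates were nearly identical there (mean -0.81, SE 0.16, limma adjusted p = 0.0201), 1.76-fold lower in the mutant. Probe 2 read -1.27 and -1.87 (adjusted p = 0.00738). On this probe the mutant channel was not well above background on either array. Against a floor, the lowest signal well above background, it was 2.70-fold lower under background subtraction. This is no strict lower limit. With normexp the differences of both probes were smaller, -0.52 at probe 1 (adjusted p = 0.018) and -0.44 at probe 2 (adjusted p = 0.0248). The call of probe 1 was lost on replicates 3 and 4 alone (adjusted p = 0.166), with the replicate block (adjusted p = 0.0779) and without either mutant treatment array (adjusted p = 0.0719). Probe 3 gave -0.01 and 0.42 and was not called (adjusted p = 0.464). It was well above background in Cy5 on no array, and in Cy3 only on wild type replicate 2 and replicate 3.

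Of the receptors, Igf1r, through which IGF1 signals, had log2 ratios of -1.09 and -0.94. It was 2.02-fold lower in the mutant (SE 0.18 on the log2 scale, adjusted p = 0.0159). The call was lost with the log ratios of Feature Extraction (adjusted p = 0.0542), on replicates 3 and 4 alone (0.0979) and with the replicate block (0.0514). Igf2r, the clearance receptor, went the other way, with 1.34 and 1.59, a mean of 1.47 (SE 0.19, adjusted p = 0.00693), 2.76-fold higher. Both receptor probes stood well above background in both dyes on all arrays.

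Among the binding proteins, Igfbp5 showed the largest difference under background subtraction, but not with normexp. Igfbp5 is a matrix-associated binding protein secreted by mesenchymal cells. Its probe 1 read 2.68 and 3.51 (mean 3.10, SE 0.25, limma adjusted p = 0.00121), 8.56-fold higher in the mutant. The signals were weak. Before the dyes were normalized, wild type (Cy3) stood 68.7 and 14.4 and mutant (Cy5) 70.7 and 26.9 intensity units above background on replicates 3 and 4, and with the normexp background correction the log2 ratio was 1.22 (adjusted p = 0.0121), below the 1.99 of Igfbp7. In the likely direction, Cy5 of replicates 3 and 4 and Cy3 of the mutant treatment arrays both carried untreated mutant RNA, of different cultures. There the Cy5 level of this probe exceeded its Cy3 level by 0.94, and the part of this in the result was not tested. For the other 7 called probes that gap ran from -0.48 at Igf1 probe 2 to 0.31 at Igfbp7. Igfbp5 probe 2 gave 0.08 and -0.49 (adjusted p = 0.536), and it was not well above background in Cy5 on any array.

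Igfbp7, a distant relative of the family that binds insulin and IGFs weakly, was bright on all arrays. It had log2 ratios of 1.97 and 2.05, 4.03-fold higher in the mutant (SE 0.17, adjusted p = 0.0014). This was the 1 member probe that also passed the thresholds of the study, an adjusted p of 0.005 and a mean log2 intensity of 6, which 1.76% of all probes passed. Igfbp4, which is mostly an inhibitor of IGF action, gave 0.94 and 1.31 at probe 1, 2.18-fold higher (SE 0.18, adjusted p = 0.00794). Its probe 2, with Cy5 not well above background on these arrays, gave -0.40 and 0.22 (adjusted p = 0.794), so the call rests on the brighter probe.

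Igfbp3 is the main carrier of IGF1 in serum and is made by fibroblasts. Its probe 1 read -1.67 and -1.997 (mean -1.83, SE 0.24, adjusted p = 0.00463). The mutant channel was not well above background on either array. Against the floor it was 2.73-fold lower in the mutant under background subtraction, which is no strict lower limit. With normexp the log2 ratio was -0.49 (adjusted p = 0.0549) and the call was lost, as it was with the log ratios of Feature Extraction (-1.86, adjusted p = 0.113). Probe 2 gave -0.01 and 0.11 (adjusted p = 0.869), also with a dim mutant channel.

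The remaining binding proteins did not pass the test. Igfbp2, another carrier, had ratios of -1.30 and -0.17, and its mean of -0.73 had a 95% interval from -1.44 to -0.03 (adjusted p = 0.128). Igfbp6, which prefers IGF2 over IGF1, had -0.01 and 1.05, with an interval of the mean from -0.24 to 1.28 (adjusted p = 0.269). For both genes the replicates differed by over 1 on the log2 scale. Leaving out replicate 4, which assumes that the lone array varies like the others, gave Igfbp2 -1.30 (adjusted p = 0.00155), where 28.9% of all probes were called. Leaving out replicate 3 gave Igfbp6 1.05 (adjusted p = 0.00396), where 43.4% were.

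The promoters of 4 called genes are shown because, under background subtraction, Igfbp5 and Igfbp7 had the largest log2 ratios above 0 among the members, and Igfbp3 probe 1 and Igf1 probe 2 the largest below 0. The sequences are from RefSeq (build GRCm38.p6), the 250 bases before the annotated start, 5′ to 3′ on the gene's own strand. Capitals mark matches, on either strand, to a TATA box (TATAAA), a GC box (GGGCGG), an AP-1 site (TGANTCA), an antioxidant response element core (TGACNNNGC) or an E-box (CACGTG).
Igfbp5 chr1:72874866-72875115 (- strand): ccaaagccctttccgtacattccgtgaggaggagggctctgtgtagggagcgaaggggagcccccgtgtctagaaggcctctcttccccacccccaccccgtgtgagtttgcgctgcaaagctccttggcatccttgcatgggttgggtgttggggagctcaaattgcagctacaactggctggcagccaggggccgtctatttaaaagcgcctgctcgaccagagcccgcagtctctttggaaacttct
Igfbp7 chr5:77408046-77408295 (- strand): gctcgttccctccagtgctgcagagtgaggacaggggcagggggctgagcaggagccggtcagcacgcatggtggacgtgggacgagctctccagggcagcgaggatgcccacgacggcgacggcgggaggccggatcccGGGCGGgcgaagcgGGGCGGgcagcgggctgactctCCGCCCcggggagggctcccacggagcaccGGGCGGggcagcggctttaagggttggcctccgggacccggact
Igf1 chr10:87860861-87861110 (+ strand): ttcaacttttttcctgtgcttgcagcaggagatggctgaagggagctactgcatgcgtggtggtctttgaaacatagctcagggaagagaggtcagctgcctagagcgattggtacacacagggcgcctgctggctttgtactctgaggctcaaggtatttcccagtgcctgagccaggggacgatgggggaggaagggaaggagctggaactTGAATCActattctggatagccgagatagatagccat
Igfbp3 chr11:7213924-7214173 (- strand): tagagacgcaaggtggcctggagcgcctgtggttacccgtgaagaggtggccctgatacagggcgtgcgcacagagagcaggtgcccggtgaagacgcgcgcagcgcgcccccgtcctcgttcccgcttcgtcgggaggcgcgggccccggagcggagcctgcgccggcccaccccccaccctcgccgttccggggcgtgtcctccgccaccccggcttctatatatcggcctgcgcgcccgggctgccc
In these windows Igfbp7 held 4 GC boxes, Igf1 held 1 AP-1 match, and Igfbp5 and Igfbp3 held none of the 5 motifs. The G and C content was 58.8%, 74.0%, 52.8% and 73.2% in the order printed, against a median of 52.4% over 32841 windows. A GC box stood in 32.7% of all windows and in 4 of the 9 members (Igf1r, Igf2r, Igfbp2 and Igfbp7), an AP-1 match in 6.75% and in 2 (Igf1 and Igfbp2), a TATA box in 12.4% and in 2 (Igfbp4 and Igfbp6), an E-box in 6.02% and in 2 (Igf2r and Igfbp2), and the antioxidant core in 10.2% and in 0. Igfbp2 has 2 annotated starts, and either counted. On the chromosome Igfbp2 and Igfbp5 are neighbouring protein-coding genes, and Igfbp3 neighbours Igfbp1. The neighbours Igfbp2 and Igfbp5 had log2 ratios of opposite sign, -0.73 and 3.10.

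The same question was put to the Cy3 channel of the 4 treatment arrays, which holds untreated cells of both genotypes in one dye and needs no assumption on replicates 3 and 4. Limma called 0 of 13 member probes there, against 0.482% of 40267 probes. At an unadjusted p under 0.05, 6 of the 13 passed, 2 higher and 4 lower, against 10.1% of all probes (2.75% higher and 7.36% lower). The median difference of all probes was -0.10 on this scale, and for the 8 member genes tested 0.06.

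Igfbp5 probe 1 stood at Cy3 levels of 5.59 and 6.49 in mutant and 4.40 and 4.04 in wild type cells. The difference of 1.82 (SE 0.42, limma adjusted p = 0.104) had a 95% interval from 0.91 to 2.73. Igfbp7 stood at 11.67 and 11.82 against 10.56 and 10.12, a difference of 1.401 (SE 0.39, adjusted p = 0.206). Neither gene's groups overlapped, as was so for 43% of the 29913 probes with these values (19.9% higher and 23.1% lower). Without wild type replicate 1, limma called both, Igfbp5 at 2.00 (adjusted p = 0.00032) and Igfbp7 at 1.62 (adjusted p = 0.00519), where 15.2% of all probes were called, and without wild type replicate 2 it called Igfbp5 (1.63, adjusted p = 0.0338), where 1.34% were. The lone wild type array is there assumed to vary like the others.

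Igf1 probe 1 stood at 5.87 and 6.16 in mutant cells and at 7.08 on the wild type array left, a difference of -1.07 (adjusted p = 0.489). Igf1 probe 2 stood at 4.71 and 4.89 against 6.21 and 5.69, a difference of -1.15 (SE 0.39, adjusted p = 0.335). Igf1r stood at 7.81 and 8.09 against 9.15, a difference of -1.20 (adjusted p = 0.428). Kept, the outlier spot of wild type replicate 2 put Igf1r at 8.28 there, above both mutant values of that normalization (8.12 and 8.04), and the difference at -0.65.

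Igf2r stood at 9.88 and 10.63 against 9.27 (difference 0.98, adjusted p = 0.549). Igfbp3 probe 1 stood at 4.37 and 4.57 against 6.02 and 5.13 (difference -1.11, adjusted p = 0.389). Igfbp4 probe 1 stood at 7.51 and 7.84 against 6.37 and 7.52, with overlapping groups (difference 0.73, adjusted p = 0.602). Each of the 7 genes called on replicates 3 and 4 thus had a difference of the same sign here, none of them past the adjusted threshold. This channel is also the basis for the direction of replicates 3 and 4, so the shared sign is not independent of that choice. With the dyes of the labels each sign would be opposite. Igfbp2 had -0.60 (adjusted p = 0.704), and Igfbp6 had no wild type value.

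**Figure D2:**
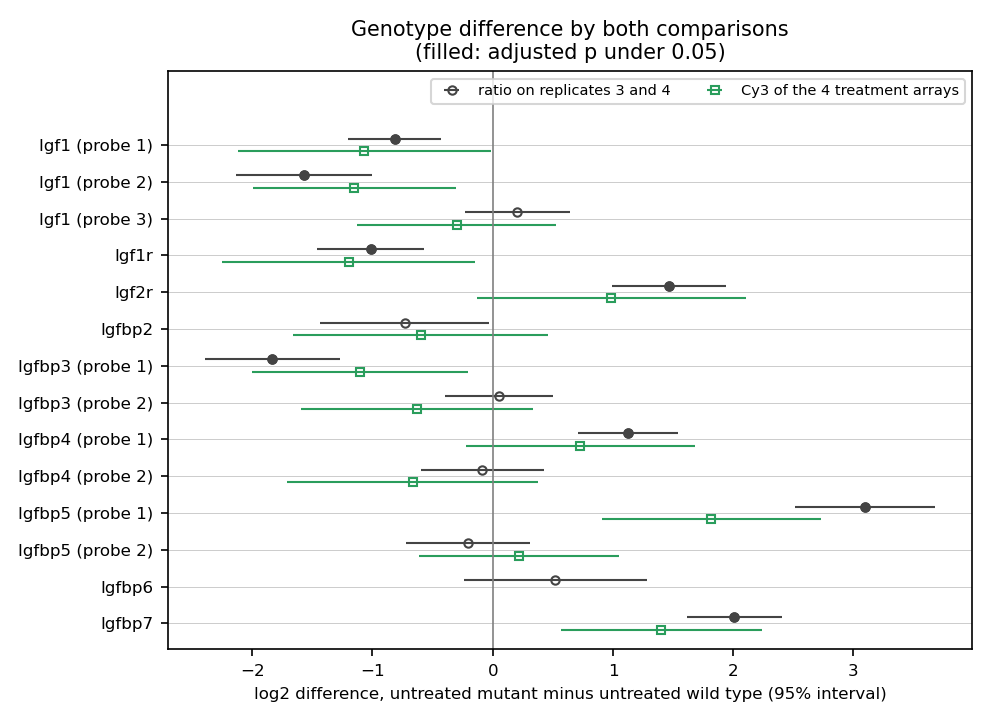
Log2 difference of untreated mutant minus untreated wild type cells (horizontal axis) with its 95% interval, per member probe (rows), from the ratio on replicates 3 and 4 (circles) and from Cy3 of the 4 treatment arrays (squares). Filled symbols passed the adjusted threshold; 8 circles and 0 squares did, and for Igfbp5 probe 1 both intervals lie above 0, from 2.51 to 3.68 and from 0.91 to 2.73.

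With Cy3 of replicates 3 and 4 added and read as wild type, the likely direction, Cy3 levels of 4 wild type cultures could be set against those of the 2 mutant cultures for 8 member probes. The groups did not overlap for 5 of them, Igfbp5 probe 1 and Igfbp7 higher and Igf1 probes 2 and 3 and Igfbp3 probe 1 lower in the mutant, against 30.9% of all 27041 probes with these values (16% higher and 14.9% lower). Igfbp7 ranged from 9.82 to 10.56 in the 4 wild type cultures, Igfbp5 probe 1 from 3.43 to 4.40, Igf1 probe 2 from 5.69 to 6.21 and Igfbp3 probe 1 from 5.13 to 6.02. Igf1 probe 3 was well above background in Cy3 on none of the mutant arrays, and Igfbp3 probe 1 on 1 of them. With the dyes of the labels the same 6 values are 4 mutant and 2 wild type cultures, and then all 8 member probes overlapped, against 10.9% of all probes that did not (2.33% higher and 8.54% lower).

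After H2O2 the genotypes were compared in the same way in Cy5 of the treatment arrays. Limma called 0 of 13 member probes, against 0.305% of 40267 probes, and 2 of 13 passed an unadjusted p under 0.05, against 8.95%. These were Igf2r, at 10.18 and 11.41 in treated mutant cells and 9.22 on the wild type array left (difference 1.57, adjusted p = 0.485), and Igfbp7, at 11.80 and 11.53 against 11.00 and 10.52 (difference 0.91, adjusted p = 0.546). Igf1 probe 1 stood at 5.86 and 6.18 against 5.89. Its difference of 0.13 had a 95% interval from -0.98 to 1.24. Igfbp5 probe 1 stood at 4.70 and 4.97 against 4.18 and 3.93, but on none of these 4 arrays was its Cy5 signal well above background.

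**Figure D3:**
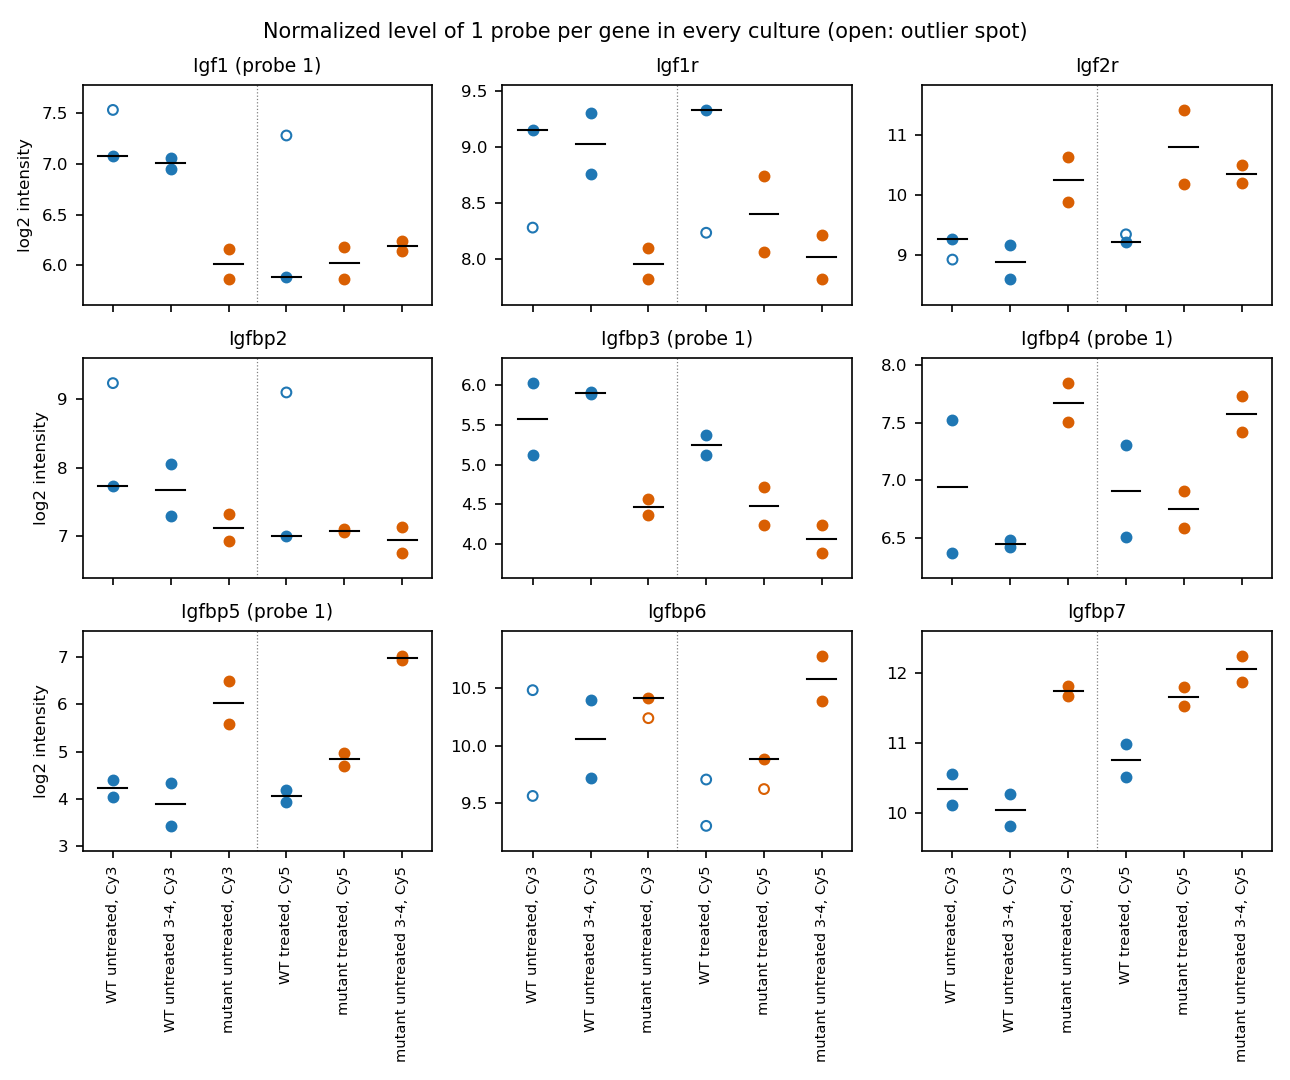
Normalized log2 intensity (vertical axis) of 1 probe per gene (panels) in every culture, Cy3 left and Cy5 right of the dotted line, wild type in blue and Wrn mutant in orange; points are arrays, bars are means, and open points are outlier spots, normalized with such spots kept. Igfbp7 lies at 11.67 and 11.82 in untreated mutant cells in Cy3 and between 9.82 and 10.56 in Cy3 of the 4 cultures read as untreated wild type, 2 of them by the likely direction.

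The response of wild type cells to H2O2 was asked of the 2 wild type arrays. Limma called 0 of 13 member probes, against 120 of 40303 probes (0.298%). At an unadjusted p under 0.05, 4 member probes passed, Igfbp7 higher and Igf1 probes 1 and 2 and Igfbp4 probe 2 lower, against 20.1% of all probes (10% higher and 10.1% lower). Igf1 probe 1 and Igfbp4 probe 2 each rest on replicate 1, and with its outlier spot on replicate 2 kept, Igfbp4 probe 2 had a mean of -0.25 (adjusted p = 0.667). The median log2 ratio of the 8 genes tested was -0.11, and of all probes -0.01.

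Igf1 came closest. Its probe 2 read -1.75 and -0.998 (mean -1.37, SE 0.24, limma adjusted p = 0.0542). Treated cells were not well above background on either array. Against the floor of these arrays, probe 2 was 2.18-fold lower under background subtraction, which is no strict lower limit. With normexp the log2 ratio of probe 2 was smaller, -0.60. Probe 1 read -1.19 on replicate 1 (adjusted p = 0.0662), and on replicate 2 its outlier spot read -0.25, which gave a mean of -0.72 (adjusted p = 0.13) when kept. Probe 3 was near 0, at 0.16 and -0.26. Limma called both probes lower with normexp, probe 2 in the series table of the authors and with outlier spots kept, and probe 1 with dim probes left out, where 6.05%, 2.42%, 2.39% and 3.36% of all probes were called. Without replicate 3 or 4 of the genotype comparison it called both, and 22.7% of all probes. On the 2 wild type arrays alone it called probe 2 (adjusted p = 0.000998), where 25.1% of all probes were called. Its call of probe 1 there rests on 1 spot with no spread of its own, and only on the spread of the other probes.

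Igfbp7 read 0.43 and 0.40 in treated wild type cells (mean 0.42, SE 0.17, adjusted p = 0.229). Igfbp3 probe 1 read -0.65 and -0.01, Igfbp4 probe 1 read 0.14 and -0.21, and Igfbp5 probe 1 read -0.23 and -0.11, each with a 95% interval of the mean that includes 0. On replicate 1 alone, Igf1r read 0.18, Igf2r -0.05 and Igfbp2 -0.72. Igfbp6 had only outlier spots, at -0.78 and -0.26.

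In mutant cells, H2O2 gave no call at any probe of the array, 0 of 41052 (0%), and 0 of the 14 member probes. At an unadjusted p under 0.05, 6 member probes passed, against 12% of all probes (5.81% higher and 6.21% lower). Igf1r and Igf2r were the higher ones, and Igf1 probe 2, both Igfbp4 probes and Igfbp5 probe 1 the lower. On the 2 mutant arrays alone, limma called 5 member probes, those 6 without Igf1r, against 10.7% of all probes.

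Igfbp4 probe 1 read -0.92 and -0.93 in treated mutant cells (mean -0.93, SE 0.18, unadjusted p = 0.00116 and adjusted p = 0.227 by limma). Igfbp5 probe 1 read -0.89 and -1.52 (mean -1.20, SE 0.25, adjusted p = 0.231). Treated cells were not well above background for it. Against the floor of these arrays, it was 1.70-fold lower under background subtraction, which is no strict lower limit. Both genes were called higher in untreated mutant cells on replicates 3 and 4, whereas untreated mutant cells of the treatment arrays are the denominator here. Within Cy3 of the treatment arrays limma called neither. Igfbp4 probe 1 had overlapping groups there (limma adjusted p = 0.602), and Igfbp5 probe 1 had an adjusted p of 0.104. Without replicate 3 or 4 of the genotype comparison, limma called both, at an adjusted p of 0.00399 for Igfbp4 and 0.00246 for Igfbp5, where 9.95% of all probes were called.

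Igf2r read 0.30 and 0.79 (mean 0.54, adjusted p = 0.373) and Igf1r 0.24 and 0.65 (mean 0.45, adjusted p = 0.413). Igf1 differed between its probes, with -0.01 and 0.02 at probe 1 and -0.46 and -0.74 at probe 2. Igfbp7 read 0.13 and -0.29, Igfbp2 0.13 and -0.21, and Igfbp3 probe 1 0.35 and -0.33, each with 1 array on either side of 0. Igfbp6 read -0.53 on the array left.

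The test of the difference between the genotypes' responses called 0 of 13 member probes and 0 of 40267 probes (0%), and the smallest adjusted p of any probe was 0.144. At an unadjusted p under 0.05, 3 member probes passed, against 5.97% of all probes. Igf1 probe 1 had a response 1.20 higher in the mutant (95% interval from 0.53 to 1.87, limma adjusted p = 0.649), with 0.73 when the outlier spot was kept. Igfbp4 probe 1 had one lower by 0.89 (log2 -0.89, interval from -1.48 to -0.30) and Igfbp5 probe 1 one of -1.04 (interval from -1.86 to -0.21). Treated cells were not well above background for Igfbp5 on any of the 4 arrays, so both responses are read against a floor and their difference is no exact value. For Igfbp7 the interval ran from -1.06 to 0.07, and for Igf1r from -0.50 to 1.03.

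Beyond the members, 63 genes of the pathway were listed by role, and 60 of them had a probe. Between untreated genotypes 12 were higher and 15 lower in the mutant, out of 60 tested, with a median log2 ratio of -0.05. Of all probes 19.6% were called (9.83% higher and 9.78% lower). Each listed gene stands by its brightest probe, whereas that share includes dim probes. With probes under a mean log2 intensity of 6 left out, it was 36.4%. The counts by role below are to be read beside these shares. No listed gene was called in either H2O2 comparison or for the difference of the responses, of 59, 60 and 59 tested.

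**Figure D4:**
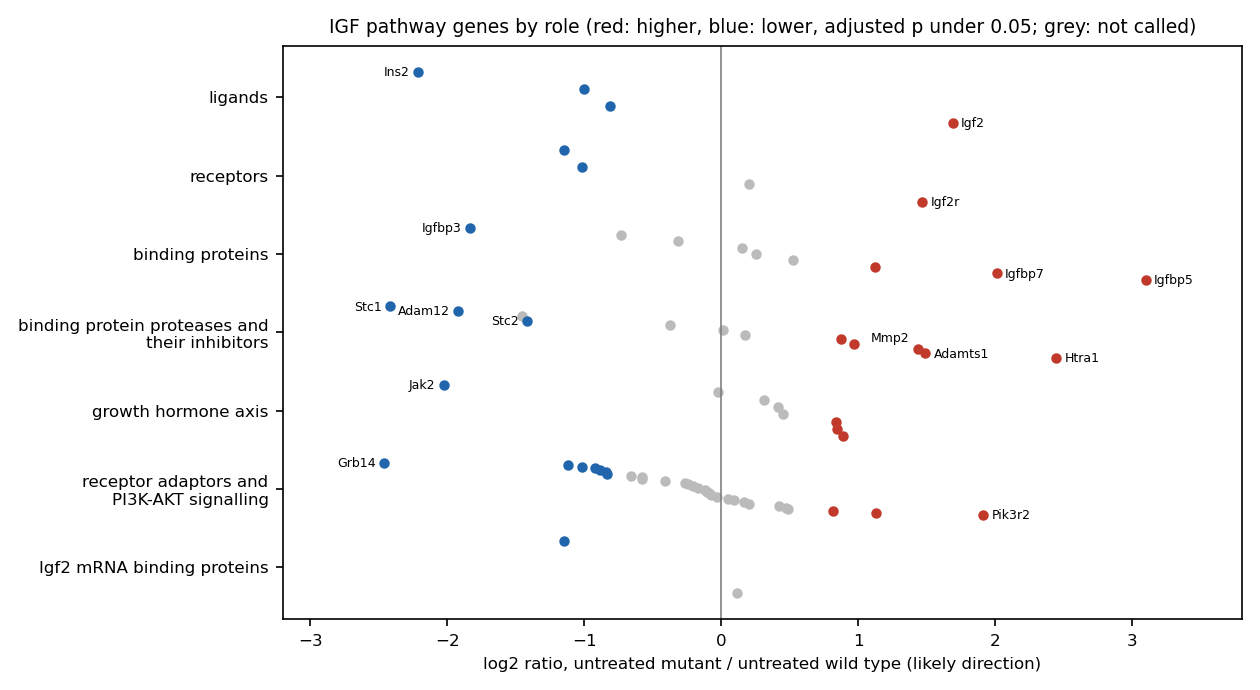
Log2 ratio of untreated mutant over untreated wild type cells (horizontal axis, likely direction) of the 9 members and the 60 further IGF pathway genes on the array, grouped by role; each point is 1 gene's brightest probe, red where called higher, blue where called lower and grey where not called. Igfbp5 (3.10) and Htra1 (2.45) lie farthest right, and Grb14 (-2.46) and Stc1 (-2.42) farthest left.

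Of the ligands, Igf2, the fetal growth factor cleared by Igf2r, was higher at 1.69 (SE 0.18, limma adjusted p = 0.00256), and both it and Igf2r were called in the same direction. In treated mutant cells Igf2 read -0.90 (adjusted p = 0.227). Ins2, an insulin gene, was lower at -2.21 (adjusted p = 0.0208), and its Cy5 signal was below its Cy3 signal in every comparison, -2.50 in wild type and -1.32 in mutant cells after H2O2. Within Cy3 the genotypes differed by 0.87 at Igf2 and -0.65 at Ins2, neither called.

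Of the 12 proteases and protease inhibitors tested, which act on the binding proteins, 5 were higher and 3 lower. Htra1, a secreted serine protease that cuts IGF binding proteins, was higher at 2.45 (adjusted p = 0.00156), Adamts1 at 1.49 (adjusted p = 0.00528) and the gelatinase Mmp2 at 1.43 (adjusted p = 0.0388). Stc1, a stanniocalcin, was lower at -2.42 (adjusted p = 0.00404), and Adam12, a metalloprotease that cuts IGFBP3 and IGFBP5, at -1.92 (adjusted p = 0.00179). Within Cy3 the differences were 1.35 for Htra1, 1.24 for Adamts1, 1.00 for Mmp2, -2.86 for Stc1 (called, adjusted p = 0.0295) and -1.30 for Adam12. Mmp3, another metalloprotease, was called in that channel at -2.50 (adjusted p = 0.0309), and on replicates 3 and 4 it read -1.46 (adjusted p = 0.111).

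Downstream of the receptor, 3 of 30 adaptor and PI3 kinase genes were higher and 7 lower. Grb14, an adaptor that restrains insulin and IGF receptor signalling, was lower at -2.46 (SE 0.16, limma adjusted p = 0.000794). Within Cy3 it differed by -2.04 (adjusted p = 0.0372), and among treated cells within Cy5 by -2.34 (adjusted p = 0.0337), the 1 listed gene called in all 3 genotype comparisons. Pik3r2, a regulatory subunit of PI3 kinase, was higher at 1.91 (adjusted p = 0.00714), with 0.58 within Cy3. Of the 8 genes of the growth hormone axis, which drives Igf1 transcription in liver, 3 were higher and 1 lower, the kinase Jak2 at -2.03 (adjusted p = 0.0154), with -0.75 within Cy3.

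The culture label was checked against marker lists. All 11 fibroblast markers were well above background in Cy3 on every array, and 10 or 11 in Cy5. On replicates 3 and 4, 6 of 10 tested were higher in untreated mutant cells and 0 lower (median log2 ratio 1.08), against 9.83% and 9.78% of all probes. With probes under a mean log2 intensity of 6 left out, 36.4% of all probes were called. The largest were the proteoglycan gene Dcn at 2.71 (limma adjusted p = 0.00182), the growth factor receptor Pdgfra at 2.18 (adjusted p = 0.0141) and the collagen gene Col3a1 at 1.55 (adjusted p = 0.0328). The 4 not called were Fn1 (0.02), Col1a2 (0.30), Vim (0.44) and Thy1 (0.45). The Cy3 level of the list was summed in linear units, where the brightest genes weigh most, and with outlier spots kept. On the treatment arrays this sum ranged from 64120 to 74590 in untreated wild type and from 96330 to 113200 in untreated mutant cells. On replicates 3 and 4, wild type by the likely direction and mutant by the labels, it was 79240 and 82690. Within Cy3 of the treatment arrays 0 of 7 fibroblast markers tested were called (median 0.58), with values from -0.35 at Thy1 to 1.92 at Dcn. Among treated cells within Cy5 1 of 7 was higher, Dcn at 3.07 (adjusted p = 0.0204, median of the list 2.11). After H2O2 none was called in either genotype, with a median of -1.04 over 7 in wild type and -0.15 over 9 in mutant cells. Their part in the differences of the IGF genes was not tested. Of the other cell types, 1 of 6 adipocyte markers was higher and 1 lower, 1 of 7 chondrocyte and osteoblast markers higher and 1 lower, and 1 of 6 epithelial markers lower. None of the 10 macrophage, 7 endothelial and 9 skeletal muscle markers was called.

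The genes whose 6 log2 ratios lay nearest to those of a called member were taken from 6021 genes of a mean log2 intensity of 6 or more with a value on every array. For Igfbp7 they were Ldb2, Cpne8 and AI429612, with root mean square differences of 0.154, 0.185 and 0.195 on the log2 scale. For Igfbp4 probe 1 they were 1700061J05Rik, Rab3d and Sirt6 (0.212, 0.213 and 0.234), and for Igfbp5 probe 1 AK075797, Rgs2 and Smoc2 (0.324, 0.35 and 0.373). For Igfbp3 probe 1 they were BC013561, AK086995 and 2810003C17Rik (0.254, 0.292 and 0.3). Igf1r, Igf2r and the brightest probe of Igf1 lacked a value on an array and have no such list.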

How the data were processed

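Expression was measured on 6 Agilent Whole Mouse Genome two-colour arrays, 2 per comparison. For each array the authors deposited spot intensity and local background intensity in Cy3 and Cy5, flags, and the log10 ratio of Feature Extraction, the image software (A.7.5.1 per the file headers, another version in the methods). A table of the whole series, also deposited, gives log2 ratios (Cy5 against Cy3) after the authors' background subtraction and loess, and each array's column correlated with the ratios computed here (lowest r 0.999). The methods give cytoplasmic and the labels total RNA.

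Log2 ratios were computed from the intensities with limma 3.58.1 in R 4.3.3, read in with the package data.table (version 1.17.8): local background subtracted, control and outlier spots left out, saturated spots kept, loess within arrays. Channel levels were further scaled between arrays by Aquantile. All 6 arrays entered 1 fit (lmFit, eBayes), with 1 coefficient per comparison, which left 3 residual degrees of freedom. Channels were fitted over the 4 treatment arrays. P-values are two-sided, adjusted by Benjamini-Hochberg over all probes fitted, and called under 0.05. The number of arrays limits the precision. Where 1 group was dim, the fold given sets the bright group's mean against a floor. That floor is the lowest signal well above background, or the dim group's own level where that was higher. The fold is no strict lower limit, since some spots above the floor were still not well above background. One was Igfbp4 probe 2 at a Cy5 level of 5.04 on replicate 4. The fold holds under background subtraction only and includes no sampling error, and normexp can give a smaller difference. The test was checked on simulated data. Of the 14 member probes, 10 had an accession that RefSeq (GRCm38.p6) gives to the same symbol, and the others keep the array's name. Python 3.11.15 with matplotlib 3.10.9 and pandas 2.3.3 drew the figures.

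Members, lists and tests were chosen with earlier results of these data known. All members are named. Of the wider lists, up to 5 called genes per direction were named, and for each called member with a value on every array the 3 genes of the smallest root mean square difference. Marker genes and those outside this rule (Wrn, Mmp3, and fibroblast markers) were named after their values were seen. The dyes of the labels for Cy3 of replicates 3 and 4 were tried after seeing the data. Other alternatives were normexp (offset 50), the log ratios of Feature Extraction, the series-wide values, outlier spots kept, a minimum mean log2 intensity of 6, each comparison's own arrays, the study's thresholds, quantile scaling of channels, a replicate block and each array left out.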

Additional observations from a re-analysis of the deposited data

How the results depend on the processing

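Between untreated genotypes 8 member probes were called. With probes under a mean log2 intensity of 6 left out, 7 member probes were tested and 5 called (36.4% of all probes). That filter removed the called Igf1 probe 2, Igfbp3 probe 1 and Igfbp5 probe 1, and the other called probes stayed called. On the comparison's own arrays 5 were called (5% of all probes), where Igf1 probe 1, Igf1r and Igfbp4 were lost, and at the study's thresholds 1 was. Counts were 7 with normexp (15.1%), 6 with the log ratios of Feature Extraction (8.16%), without Igf1r and Igfbp3, and 8 in the series table (22.3%) and with outlier spots kept (22.4%). Leaving out each array gave 7 to 9, with 9.01% to 43.4% of all probes called. In wild type cells after H2O2, 0 calls became 2 with normexp, 1 in the series table, 1 with outlier spots kept, 1 with dim probes left out, 5 on the own arrays and 0 to 4 with each array left out. In mutant cells 0 became 5 on the own arrays and 0 to 2 with each array left out. Within Cy3 and within Cy5, 0 were called under the alternatives that kept every array. Leaving out a treatment array leaves 1 array in a group there. Without wild type replicate 1, Igfbp3 probe 2 differed by -1.50 within Cy5. Its mutant Cy5 signal was not well above background on either array. The difference of the responses stayed at 0 calls under every alternative. Replicate numbers 1 and 2 share only a number: across probes, the replicate differences of wild type and mutant arrays correlated with r = -0.046. With the replicate block, limma called 6 member probes between untreated genotypes, without Igf1 probe 1 and Igf1r (8.4% of all probes), and 0 in each other comparison. Chosen after seeing the data, the dyes of the labels on replicates 3 and 4 took the member probes that do not overlap in Cy3 of all arrays from 5 to 0.

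Signs turned only for values near 0 or left on 1 array. In mutant cells after H2O2, Igf1 became -0.056 with the log ratios of Feature Extraction, and leaving out each array gave -0.0056 to 0.020 for Igf1, -0.21 to 0.13 for Igfbp2, -0.33 to 0.35 for Igfbp3 and -0.29 to 0.13 for Igfbp7. In wild type cells, Igf2r became 0.20 in the series table, 0.20 with outlier spots kept and 0.20 with the replicate block, and Igfbp4 ran from -0.21 to 0.14 with each array left out. Among treated cells within Cy5, Igf1 became -0.054 with normexp, -0.55 with outlier spots kept and -0.027 with the replicate block and ran from -0.027 to 0.29 with each array left out, Igfbp2 became -0.90 with outlier spots kept, and Igfbp4 became 0.067 with normexp and 0.31 with outlier spots kept and ran from -0.56 to 0.24. Between untreated genotypes Igfbp6 ran from -0.0096 to 1.05. Of the values per gene, 508 kept direction and side of the threshold, 21 became called, 10 lost the call and 18 turned sign. A block for slide or extraction day was not run, since each array is its own slide, and the images of replicates 3 and 4 were each processed in Feature Extraction on another day than the rest. Scan days and RNA extraction days are not given in the sources used here. Signal over background limits Igf1 probes 2 and 3, both Igfbp3 probes, both Igfbp5 probes and Igfbp4 probe 2, each of them not well above background in Cy5 on at least 4 arrays.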
